A study of Mus musculus with 36 samples.

Results

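Bone marrow-derived macrophages (BMMs) labelled gKO for the transcription factor gene Irf8 were compared with their gWT counterparts at day 0 of an osteoclast culture, when the cells had received the growth factor M-CSF and no RANKL. The comparison used 6 of the 36 RNA-seq libraries of the series, 3 gWT and 3 gKO, all from mice labelled C57BL/6 and, per the deposited sample sheet, from one data set. The 30 other libraries came from the same genotypes at day 3 (preOCs) and day 6 (mature OCs) in M-CSF at 20 ng/ml with RANKL added at 40 ng/ml, and from cWT and cKO mice on the same 3 days. The labels spell out neither the prefixes g and c nor the Irf8 allele behind gKO. Nothing in them states that replicate libraries were grown from different mice, and the p-values given here may therefore reflect technical spread alone. The series' design text states that mice of both sexes were used. Of 24950 genes listed in RPKM (read counts scaled to gene length and to the library's total reads), 10829 reached 1 RPKM in at least 3 of the 6 libraries and were tested.

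IRF8 is a DNA-binding protein of the interferon regulatory factor family that drives myeloid progenitors toward monocytes and macrophages and away from granulocytes. With the Ets factor PU.1 it binds composite elements, and with other IRF proteins it binds interferon-stimulated response elements (ISREs) in front of antiviral genes. M-CSF, acting through the receptor Csf1r, supports the growth and survival of macrophages in culture. RANKL then turns macrophages into osteoclasts, the bone-resorbing cells, and IRF8 is known as a brake on that step through the transcription factor NFATc1.

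The sample sheet lists 34510144 to 41931589 alignments per gWT library and 43504230 to 50672770 per gKO library. One RPKM of a gene with a 1 kb model thus stands for 34.5 to 41.9 alignments in gWT and 43.5 to 50.7 in gKO. On the log2(RPKM + 1) scale, libraries of one group correlated across genes at r = 0.995 to 0.998 and libraries of different groups at r = 0.847 to 0.861. The median residual SD was 0.0805. The 10 most abundant genes held 15.8 to 16.9% of all RPKM in gWT and 11.7 to 12.7% in gKO.

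The targeted gene itself gave no check of the labels. Irf8 stood at 61.1, 63.4 and 66.3 RPKM in gWT and at 59.03, 56.9 and 56.3 RPKM in gKO, so transcripts of the locus were almost as abundant in gKO. The groups did not overlap, but the difference was small (log2 change -0.14 ± 0.05 SE, limma adjusted p = 0.0299), and the call was lost when gWT 2, gWT 3, gKO 2 or gKO 3 was left out and in fits on 18 or 36 libraries (adjusted p of 0.000502 to 0.249 over all alternatives). Whether these reads fall outside a deleted part cannot be told from a value per gene. The cell type label fitted gWT: Csf1r, Adgre1 (the F4/80 antigen), Cd68 and Lyz2 had means of 851, 481, 610.1 and 17910.0 RPKM. In gKO the same genes were still detected but lower, at 199.7, 116, 230.5 and 7048 RPKM. There the 35 macrophage identity genes summed to 9170.0 to 10429 RPKM and the 30 neutrophil genes to 22735 to 28466 RPKM, so the gKO libraries went in part against the label and are called by their genotype here. Xist was under 1 RPKM in all 6 libraries, while the Y-linked genes Ddx3y and Eif2s3y stood at 13.5 RPKM or more in every library. Of 5 sex-linked genes listed 4 were tested and all 4 were lower in gKO, with a median log2 change of -0.27.

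The gKO cells differed from gWT in most expressed genes. With limma on log2(RPKM + 1) and an adjusted p under 0.05, 8763 of 10829 genes were called, which is 80.9% of those tested. Of these, 5499 were higher in gKO (50.8% of genes tested) and 3264 were lower (30.1%). Changes of at least 2-fold were called for 1456 genes upward (13.4%) and 936 downward (8.64%), but for 1115 and 1134 after quantile scaling and 986 and 1262 after median centring. Since most genes pass, a call alone says little, and the size of a change and its place among the other genes are given beside it. Counts of list members called at day 0 are to be read against these shares, 50.8% higher and 30.1% lower. The median change over all genes tested was 0.19 on the log2 scale. Quantile scaling gave 4524 genes higher and 4102 lower with a median of 0.04, and centring each library on its median gave 4078 higher and 4414 lower with a median of -0.02. Changes near 0.19 therefore have no firm direction. At the filter, 680 genes reached 1 RPKM in exactly 3 of the 6 libraries and 128 in exactly 2. Of the genes tested, 343 were at 1 RPKM or more in all gKO and no gWT library and 298 in all gWT and no gKO library. Such genes passed the filter through one group and had to differ, so they add nothing to a list's count. They made up 13 of 49 tested interferon response genes, 7 of 15 immunity GTPases, 5 of 9 genes of mast cells, basophils and eosinophils, 4 of 15 dendritic cell genes, 3 of 9 stromal genes, 3 of 10 inflammatory cytokines, 3 of 11 MHC class II genes and 3 of 12 reported IRF8 targets, 0 to 2 in each of the other lists.

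**Figure D1:**
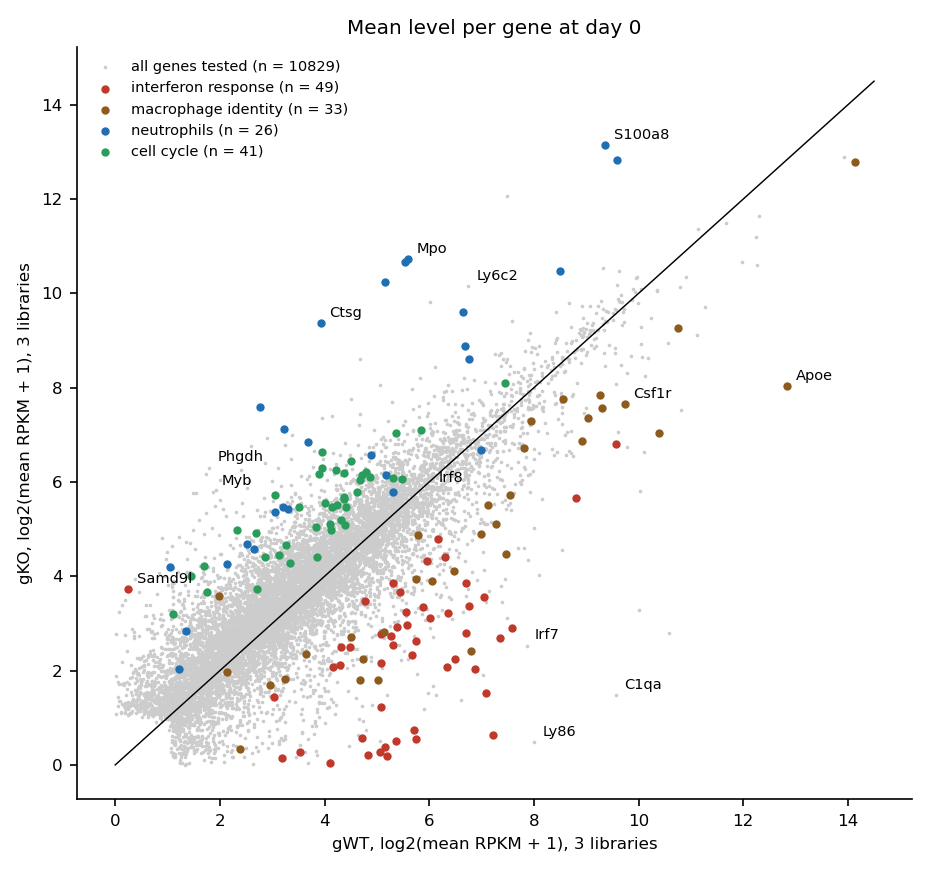
Mean level of each tested gene in gKO (y axis) against gWT (x axis), both as log2(mean RPKM + 1) over 3 libraries, with 4 gene lists in colour and the line of equal levels. Interferon response genes lie below the line except for Samd9l (0.192 to 12.3 RPKM), most macrophage identity genes lie below it, and cell cycle genes and all neutrophil genes but Mmp8 (126 to 102 RPKM) lie above it.

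Among called genes averaging 5 RPKM or more in whichever group was higher, the largest falls were in classical complement, in a Toll-like receptor accessory protein and in interferon-induced genes. C1qa, C1qb and C1qc encode the 3 chains of C1q, which starts the classical complement cascade and is made by macrophages. C1qa measured 712, 823 and 739 RPKM in gWT and 1.83, 2.13 and 1.44 RPKM in gKO (log2 change -8.09 ± 0.10 SE, limma adjusted p = 6.39e-10). C1qb went from a mean of 1531 to 5.91 RPKM (log2 change -7.79 ± 0.08 SE) and C1qc from 1024 to 8.71 RPKM (-6.72 ± 0.08 SE). All 3 chains were among the abundant transcripts of gWT and under 10 RPKM on average in gKO. Of 18 listed genes of complement and opsonins 14 were tested, 12 were lower and 1 higher, with a median log2 change of -1.28. Ly86, which encodes the MD-1 partner of the receptor RP105, stood at 223, 283 and 260.0 RPKM in gWT and at 0.338, 0.442 and 0.401 RPKM in gKO (log2 change -7.52 ± 0.09 SE, limma adjusted p = 6.39e-10). Its partner gene Cd180 fell far less, from 56.8 to 31.3 RPKM (-0.84 ± 0.06 SE). Aif1, a calcium-binding macrophage protein also called Iba1, fell from 129.8 to 2.75 RPKM (log2 change -5.12 ± 0.11 SE, limma adjusted p = 3.32e-09). The 12 largest falls were completed by Ifit3, Oasl2, Irf7, Ifi211, Rsad2, Ifit3b and Ifit1, all induced by interferon. In bulk RNA, fewer cells of a type and less RNA per cell cannot be told apart, here or in any result that follows.

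Granulocyte and early myeloid genes led the rises. Ctsg, Mpo, Elane and Prtn3 encode cathepsin G, myeloperoxidase, neutrophil elastase and proteinase 3, the contents of primary neutrophil granules made at the promyelocyte stage. Mpo measured 48.4, 52.5 and 41.04 RPKM in gWT and 1674, 1728 and 1656 RPKM in gKO (log2 change 5.13 ± 0.09 SE, limma adjusted p = 1.6e-09). Elane went from a mean of 45.6 to 1619 RPKM (5.12 ± 0.10 SE), Prtn3 from 34.5 to 1207 RPKM (5.10 ± 0.14 SE) and Ctsg from 14.2 to 662 RPKM (5.45 ± 0.11 SE). RNA of these granule genes was detected in every gWT library. Ms4a3, a marker of granulocyte and monocyte progenitors, measured 4.64, 7.05 and 5.77 RPKM in gWT and 182, 211 and 182 RPKM in gKO (log2 change 4.83 ± 0.12 SE, limma adjusted p = 6.21e-09). Chil3 (the chitinase-like protein Ym1) rose from 178 to 4308 RPKM (log2 change 4.59 ± 0.10 SE, limma adjusted p = 2.91e-09) and became one of the most abundant transcripts of gKO. Phgdh, the enzyme that commits glucose carbon to serine, rose from 2.46 to 78.1 RPKM (log2 change 4.53 ± 0.11 SE, limma adjusted p = 5.7e-09). The 12 largest rises also held Rgcc, a cell cycle regulator, Hsd11b1, the enzyme that regenerates active glucocorticoid, Cst7, the protease inhibitor cystatin F, Trem3, a myeloid receptor, and the matrix gene Fn1, with log2 changes of 4.47, 4.28, 4.23, 4.18 and 4.03.

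**Figure D2:**
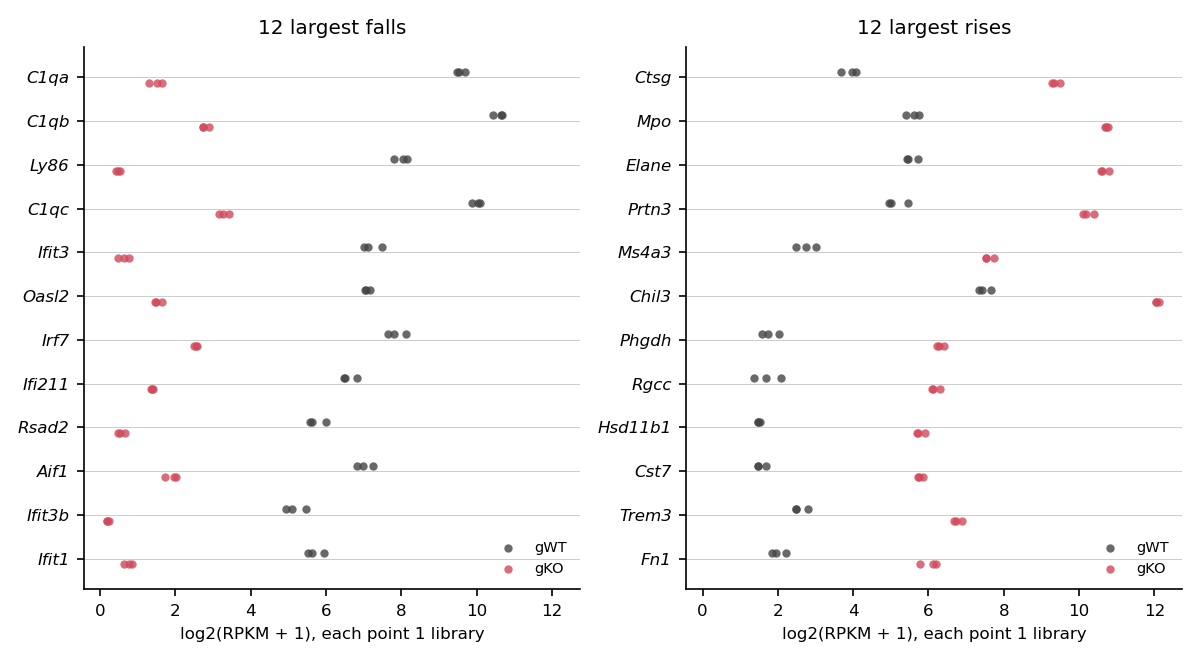
Level in each library, as log2(RPKM + 1), of the 12 largest falls (left) and the 12 largest rises (right), with gWT in grey and gKO in red. The 3 libraries of a group lie close together, from C1qa (758 to 1.8 RPKM) to Fn1 (3.02 to 64.9 RPKM). The genes were chosen among those whose groups do not overlap.

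Most genes of the IRF family were lower, although Irf8 itself was nearly level. Of 9 family genes 8 were tested, 6 were called lower (Irf8 among them) and none higher, with a median log2 change of -1.25 against 0.19 over all genes. Irf7, the amplifier of the type I interferon response, measured 198, 275 and 222 RPKM in gWT and 4.59, 4.89 and 4.86 RPKM in gKO (log2 change -5.32 ± 0.11 SE, limma adjusted p = 2.32e-09). Irf9, the DNA-binding part of the interferon-activated complex at ISREs, fell from 38.9 to 9.34 RPKM (log2 change -1.95 ± 0.05 SE, limma adjusted p = 8.31e-09). Irf5, which acts downstream of Toll-like receptors, fell from 92.5 to 26.6 RPKM (log2 change -1.76 ± 0.05 SE, limma adjusted p = 6.73e-09), and Irf1 fell from 39.1 to 12.1 RPKM (log2 change -1.60 ± 0.09 SE, limma adjusted p = 5.61e-07). Irf2 fell by less, from 35.7 to 18.7 RPKM (log2 change -0.90 ± 0.04 SE). Irf3, the sensor-activated inducer of interferon beta, was at 16.3 and 17.8 RPKM and was not called (limma adjusted p = 0.0699). Irf4 stood at 2.56 and 2.75 RPKM and was not called either (limma adjusted p = 0.292). The sign of both changed to negative under either rescaling of the libraries.

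Interferon response genes were lower almost without exception. Of 50 listed genes 49 were tested, 48 were called lower, each by at least 2-fold, and 1 was higher, with a median log2 change of -3.08. Of the 49, 12 reached 1 RPKM in gWT only and Samd9l in gKO only, so their direction was fixed by the filter. Over all 50 genes with no filter the median was -3.06. Called genes lower by at least 2-fold made up 8.64% of all genes tested. Their summed level was 3651 to 4406 RPKM in gWT and 417 to 453 RPKM in gKO. Ifit3, an RNA-binding antiviral protein, measured 128, 179.5 and 138 RPKM in gWT and 0.714, 0.55 and 0.386 RPKM in gKO (log2 change -6.58 ± 0.13 SE, limma adjusted p = 2.04e-09). Rsad2, which encodes the antiviral enzyme viperin, measured 46.4, 63.3 and 48.02 RPKM in gWT and 0.577, 0.452 and 0.391 RPKM in gKO (log2 change -5.17 ± 0.11 SE, limma adjusted p = 3.31e-09). Isg15, a ubiquitin-like modifier, went from a mean of 117 to 3.08 RPKM, and Mx1, a dynamin-like antiviral GTPase, from 32.3 to 0.204 RPKM. In gWT the second library was the highest for all 4 of these genes, and the gap to the other gWT libraries was small next to the gap to gKO. Stat2, a signal transducer of the pathway, fell from 57.8 to 9.19 RPKM (log2 change -2.53 ± 0.05 SE). The cytosolic RNA sensors Ddx58 (RIG-I) and Ifih1 (MDA5) fell by 2.47 and 2.18 on the log2 scale.

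Samd9l, an interferon-induced antiproliferative gene, went the other way. It measured 0.162, 0.283 and 0.13 RPKM in gWT and 12.8, 10.98 and 13.1 RPKM in gKO (log2 change 3.48 ± 0.08 SE, limma adjusted p = 4.66e-09). The gWT libraries were all below 1 RPKM and the gKO libraries all above 10. Reads of the Ifi200 genes (Ifi203, Ifi204, Ifi205, Ifi211, Mndal), the Oas1 genes and Ifit3 with Ifit3b may be shared between near-identical copies, and how the authors' counting split them is not given in the sources used here.

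Promoters of the interferon genes held the ISRE core more often than other promoters did. RefSeq promoters (build GRCm38.p6, 250 bases before to 50 after each start) were found by symbol for 8764 of the 10829 genes tested and searched on both strands for the ISRE core GAAANNGAAA and for the Ets-IRF composite element GGAANNGAAA. The motifs differ in 1 base, so a site cannot match both on one strand. The ISRE core was present in 22 of 36 promoters of called interferon response genes (61.1%), against 4.07% of promoters of all genes tested. Immunity GTPases had it in 8 of 9. Among genes called and at least 2-fold lower the share was 12.4%, and among those at least 2-fold higher it was 2.99%. The composite element was in 5.92% of promoters of the former, 2.13% of the latter and 2.9% of all. MHC class II, MHC class I and reported IRF8 target genes had the ISRE core in 1 of 7, 3 of 13 and 1 of 8 promoters found. A match describes the letters in this window and not a bound site.

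Of the 12 largest falls, 11 had a promoter in the table, 6 of these held the ISRE core and 0 the composite element. Of the 12 largest rises, 10 had one, and 0 held the ISRE core. The promoters of these 6 falls are shown 5′ to 3′ on the strand of the gene, with the ISRE core in capitals, because they place the motif before genes with a mean under 3 RPKM in gKO. They lie at chr19:34583279-34583578 (plus strand), chr1:173912997-173913296 (minus strand), chr12:26456403-26456702 (minus strand), chr17:35176003-35176302 (minus strand), chr19:34607707-34608006 (plus strand) and chr19:34640639-34640938 (plus strand), in the order given.
Ifit3: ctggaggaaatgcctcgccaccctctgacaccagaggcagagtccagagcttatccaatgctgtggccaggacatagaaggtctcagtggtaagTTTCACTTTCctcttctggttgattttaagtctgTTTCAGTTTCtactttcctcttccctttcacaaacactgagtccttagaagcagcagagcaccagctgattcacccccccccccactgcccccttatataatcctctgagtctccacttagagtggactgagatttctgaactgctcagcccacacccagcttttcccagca
Ifi211: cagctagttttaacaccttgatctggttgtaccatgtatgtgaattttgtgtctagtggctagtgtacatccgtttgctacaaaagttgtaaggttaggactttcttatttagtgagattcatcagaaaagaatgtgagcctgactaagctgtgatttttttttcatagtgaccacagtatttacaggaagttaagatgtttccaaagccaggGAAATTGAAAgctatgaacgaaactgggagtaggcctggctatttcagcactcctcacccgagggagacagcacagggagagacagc
Rsad2: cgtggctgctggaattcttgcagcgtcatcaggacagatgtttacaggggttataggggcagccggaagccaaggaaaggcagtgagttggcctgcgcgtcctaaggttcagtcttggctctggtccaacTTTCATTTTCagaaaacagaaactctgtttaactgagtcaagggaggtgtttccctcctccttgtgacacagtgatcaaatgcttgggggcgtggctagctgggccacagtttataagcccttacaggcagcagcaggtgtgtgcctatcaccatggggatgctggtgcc
Aif1: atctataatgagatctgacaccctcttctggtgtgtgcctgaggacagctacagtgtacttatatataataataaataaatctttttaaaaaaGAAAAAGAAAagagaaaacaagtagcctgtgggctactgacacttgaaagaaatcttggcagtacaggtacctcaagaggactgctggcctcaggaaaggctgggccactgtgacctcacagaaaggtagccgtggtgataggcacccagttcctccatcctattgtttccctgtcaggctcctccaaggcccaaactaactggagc
Ifit3b: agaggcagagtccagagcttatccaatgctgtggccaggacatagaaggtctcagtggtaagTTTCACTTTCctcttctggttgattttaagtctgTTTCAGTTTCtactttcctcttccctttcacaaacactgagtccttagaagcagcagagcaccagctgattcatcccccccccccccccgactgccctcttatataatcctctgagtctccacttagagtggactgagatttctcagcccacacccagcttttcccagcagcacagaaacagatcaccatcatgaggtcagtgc
Ifit1: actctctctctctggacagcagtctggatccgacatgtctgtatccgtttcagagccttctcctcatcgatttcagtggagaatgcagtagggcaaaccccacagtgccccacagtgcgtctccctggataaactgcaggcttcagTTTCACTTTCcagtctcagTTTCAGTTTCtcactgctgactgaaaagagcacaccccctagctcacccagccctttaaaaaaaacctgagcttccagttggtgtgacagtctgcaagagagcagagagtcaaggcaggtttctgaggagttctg

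The first base of the core lay 156 and 122 bases before the start in Ifit3, 188 and 154 in Ifit3b and 104 and 85 in Ifit1, so each of these 3 genes held it at 2 places. It lay 120 bases before the start in Rsad2, 37 in Ifi211 and 157 in Aif1. Of the 6, Aif1 and Ifi211 are not on the interferon list used here. C1qb, C1qc, Ly86, Oasl2 and Irf7 held neither motif in this window.

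The interferon-inducible GTPases of cell-autonomous immunity were lower in gKO. Of 17 listed genes 15 were tested and all 15 were called lower, but 7 of these reached 1 RPKM in gWT only, which fixed their direction. The median log2 change was -2.65 over the 15 and -2.64 over all 17 with no filter. Iigp1, an immunity-related GTPase that attacks the vacuole of intracellular parasites, measured 10.01, 15.1 and 10.3 RPKM in gWT and 0.0349, 0.0482 and 0.0155 RPKM in gKO (log2 change -3.61 ± 0.13 SE, limma adjusted p = 4.28e-08). Gbp2, a guanylate-binding protein, fell from 35.8 to 1.81 RPKM (log2 change -3.69 ± 0.15 SE, limma adjusted p = 6.17e-08), and Irgm1, the regulator of the family, from 74.2 to 11.2 RPKM (log2 change -2.62 ± 0.06 SE, limma adjusted p = 5.5e-09). The Gbp genes are close copies of each other, and the split of shared reads is not known.

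Antigen presentation genes were mostly lower. For MHC class II, 11 of 12 genes were tested, 8 were lower and 2 higher, with a median log2 change of -1.15. Among the 11, 3 reached 1 RPKM in one group only, which fixed their direction. Of these, 1 did so in gWT only and the others in gKO only. The median over all 12 with no filter was -0.96. Cd74, the invariant chain, measured 369.9, 453 and 346 RPKM in gWT and 90.98, 96.3 and 93.2 RPKM in gKO (log2 change -2.04 ± 0.10 SE, limma adjusted p = 1.99e-07). The chain genes H2-Aa, H2-Ab1 and H2-Eb1 fell by 1.77, 1.85 and 1.93 on the log2 scale, and Ciita, the class II transactivator, fell from 1.98 to 0.739 RPKM (log2 change -0.78 ± 0.08 SE, limma adjusted p = 2.28e-05). Ctss, the protease that trims the invariant chain, fell most, from 1789 to 184 RPKM (log2 change -3.27 ± 0.09 SE, limma adjusted p = 8.01e-09). The 2 that rose, H2-Oa and H2-Ob, encode the inhibitor of peptide loading and stayed under 2 RPKM. For MHC class I and its peptide supply, 22 of 27 genes were tested, 20 were lower and 1 higher (median -1.49). B2m, the light chain, fell from 2457 to 843 RPKM (log2 change -1.54 ± 0.11 SE, limma adjusted p = 2.36e-06), the heavy chain gene H2-K1 from 872 to 315 RPKM and Nlrc5, the class I transactivator, from 9.13 to 2.54 RPKM. Within the peptide transporter, Tap1 fell from 58.7 to 21.03 RPKM (log2 change -1.44 ± 0.07 SE) while Tap2 rose from 39.3 to 48.4 RPKM (0.29 ± 0.07 SE), a rise that was not called after median centring. The H2 genes share sequence, so values of single members are uncertain.

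Genes reported elsewhere as IRF8 targets in myeloid cells moved in both directions. Of 15 listed, 12 were tested, 6 were lower and 4 higher, with a median log2 change of -0.14. Among the 12, 3 reached 1 RPKM in one group only, which fixed their direction. Of these, 1 did so in gWT only and the others in gKO only. The median over all 15 with no filter was -0.03. Over all genes tested, 30.1% were lower and 50.8% higher, with a median of 0.19. Tlr9, the endosomal DNA receptor, fell from 13.4 to 1.27 RPKM (log2 change -2.66 ± 0.09 SE, limma adjusted p = 2.57e-08), and Cst3, the protease inhibitor cystatin C, fell from 1052 to 487 RPKM (log2 change -1.11 ± 0.11 SE, limma adjusted p = 2.07e-05). The ceramidase gene Asah1 and the nuclear body gene Pml fell by 1.28 and 1.18 on the log2 scale. Bcl2, which blocks apoptosis, rose from 0.45 to 3.26 RPKM (log2 change 1.55 ± 0.06 SE, limma adjusted p = 5.88e-08), and Klf4, a monocyte transcription factor, from 3.16 to 6.89 RPKM (log2 change 0.93 ± 0.05 SE, limma adjusted p = 5.14e-07). Nfatc1, the master regulator of osteoclast genes, stood at 9.6, 9.02 and 7.98 RPKM in gWT and 9.4, 8.8 and 9.33 RPKM in gKO and was not called (limma adjusted p = 0.537). Under either rescaling of the libraries Nfatc1 was called lower in gKO, by 0.17 on the log2 scale. The limma adjusted p was 0.0429 after median centring and 0.0324 after quantile scaling.

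Macrophage identity genes were lower as a group. Of 35 listed genes 33 were tested, 31 were lower and 1 higher, with a median log2 change of -1.81, and their summed level was 31349 to 35410.0 RPKM in gWT and 9170.0 to 10429 RPKM in gKO. Over the same libraries the summed level of the neutrophil list was 2262 to 2962 RPKM in gWT and 22735 to 28466 RPKM in gKO. The part of a changed cell mixture in these results was not tested. Apoe, a lipid carrier made by macrophages, measured 6443, 7886 and 7680.0 RPKM in gWT and 232, 284 and 268 RPKM in gKO (log2 change -4.80 ± 0.11 SE, limma adjusted p = 4.58e-09). Csf1r, the M-CSF receptor, measured 871, 846 and 836 RPKM in gWT and 198, 194 and 207 RPKM in gKO (log2 change -2.09 ± 0.07 SE, limma adjusted p = 1.6e-08). Adgre1 fell from 481 to 116 RPKM (log2 change -2.05 ± 0.07 SE, limma adjusted p = 1.97e-08) and Mertk, a receptor for apoptotic cells, from 34 to 6.06 RPKM (log2 change -2.31 ± 0.08 SE, limma adjusted p = 3.23e-08). Gpnmb, Mrc1 (the mannose receptor) and Maf, a transcription factor of tissue macrophages, fell by 3.34, 2.16 and 1.60 on the log2 scale. Mgl2, a lectin also found on dendritic cells, was the 1 gene that rose, from 2.93 to 11.02 RPKM (log2 change 1.62 ± 0.10 SE, limma adjusted p = 1.06e-06). Cd163 was low and not called (limma adjusted p = 0.285).

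Lysosomal genes, which are abundant in macrophages, were lower too. All 28 listed genes were tested, 26 were lower and 1 higher (median log2 change -1.36), and the sum was 18044 to 19711 RPKM in gWT and 5742 to 6316 RPKM in gKO. Ctsh, Lgmn and Ctsb, proteases of the endolysosome, fell from 174 to 14.4 RPKM, 876 to 105 RPKM and 2222 to 552 RPKM. Psap, which activates sphingolipid breakdown, fell from 4055 to 1622 RPKM (log2 change -1.32 ± 0.09 SE, limma adjusted p = 1.78e-06). The V-ATPase, the proton pump of the lysosome, had a median closer to 0: of 15 subunit genes 11 were lower and 1 higher, with a median of -0.30, and no subunit changed by 2-fold. In iron handling, 8 of 13 tested genes were lower and 4 higher. Slc40a1, the iron exporter ferroportin, fell from 175 to 21.2 RPKM (log2 change -2.99 ± 0.06 SE, limma adjusted p = 1.97e-09), and Tfrc, the transferrin receptor that imports iron, rose from 33.95 to 77.2 RPKM (log2 change 1.16 ± 0.06 SE, limma adjusted p = 2.76e-07). The ferritin chain Ftl1 fell from 15510.0 to 7595 RPKM (log2 change -1.03 ± 0.13 SE), a fall that quantile scaling set to 0 (adjusted p = 1.0).

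Most receptors and mediators of innate immunity were lower. Of 18 Toll-like receptor genes and co-receptors 16 were lower and 2 higher (median log2 change -1.52). Cd14 fell from 126 to 28.7 RPKM, Tlr7 from 54.6 to 14.9 RPKM and Tlr4 from 16.7 to 7.33 RPKM, and the flagellin receptor Tlr5 rose from 1.3 to 3.74 RPKM (log2 change 1.04 ± 0.12 SE, limma adjusted p = 4.9e-05). All 7 Fc receptor genes tested were lower (median -1.77), led by the high-affinity IgG receptor Fcgr1, which measured 99.4, 122 and 111 RPKM in gWT and 3.93, 4.43 and 4.53 RPKM in gKO (log2 change -4.40 ± 0.08 SE, limma adjusted p = 1.86e-09). Of 6 NADPH oxidase genes 3 were lower and 2 higher: the catalytic subunit Cybb fell from 234 to 187 RPKM (log2 change -0.32 ± 0.07 SE) and Rac2 rose from 78.2 to 158 RPKM (1.01 ± 0.07 SE). Of 17 inflammasome and interleukin-1 family genes tested, 10 were lower and 5 higher. Casp1 fell from 63.9 to 21.6 RPKM (log2 change -1.52 ± 0.07 SE, limma adjusted p = 1.62e-07) and Il18 from 13.7 to 2.27 RPKM (log2 change -2.17 ± 0.08 SE, limma adjusted p = 5.3e-08), while the sensor gene Nlrp3 was at 20.8 and 19.7 RPKM and was not called (limma adjusted p = 0.357).

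Cytokine and chemokine genes moved in both directions. Of 10 inflammatory cytokine genes tested 6 were higher and 3 lower, with a median log2 change of 0.25. This was close to all genes tested, of which 50.8% were higher, with a median of 0.19. After median centring 4 were higher and 4 lower, with a median of 0.03. Among the 10, 3 reached 1 RPKM in one group only, 2 of them in gWT only, which fixed their direction. Tnf rose from 8.27 to 19.2 RPKM (log2 change 1.15 ± 0.14 SE, limma adjusted p = 6.18e-05) and Il10, an anti-inflammatory cytokine, fell from 3.39 to 0.318 RPKM (log2 change -1.72 ± 0.12 SE, limma adjusted p = 1.37e-06). Of 16 chemokine genes tested 10 were lower and 4 higher. Ccl2, which draws monocytes through the receptor Ccr2, measured 8.99, 14.97 and 14.9 RPKM in gWT and 92.02, 106 and 102 RPKM in gKO (log2 change 2.89 ± 0.17 SE, limma adjusted p = 5.92e-07), and its neighbour Ccl7 rose from 5.83 to 37.8 RPKM. Cxcl16 measured 58.8, 68.03 and 59.4 RPKM in gWT and 1.75, 1.97 and 1.87 RPKM in gKO (log2 change -4.46 ± 0.07 SE, limma adjusted p = 1.09e-09), and Pf4, also a platelet gene, fell from 1101 to 98.7 RPKM (log2 change -3.48 ± 0.11 SE, limma adjusted p = 1.76e-08). Ccl5 and the interferon-induced Cxcl10 fell by 3.99 and 3.08 on the log2 scale. Among 9 chemokine receptor genes tested 6 were lower and 3 higher. Ccr2, the receptor for Ccl2, fell from 101 to 77.4 RPKM, and Cx3cr1 and the neutrophil receptor Cxcr2 rose from 28.4 to 62.9 RPKM and from 4.73 to 24.6 RPKM.

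Neutrophil genes rose together. Of 30 listed genes 26 were tested, 25 were higher and 1 lower, with a median log2 change of 2.25, against 50.8% of all genes tested that were called higher. Beside the primary granule genes, the calgranulins S100a8 and S100a9 stood out by abundance. S100a8 measured 565, 790.0 and 617 RPKM in gWT and 7699, 10300.0 and 9093 RPKM in gKO (log2 change 3.78 ± 0.15 SE, limma adjusted p = 7.33e-08). The secondary granule genes Ltf (lactoferrin), Camp (cathelicidin) and Lcn2 (lipocalin 2) rose from 101 to 470.0 RPKM, 108 to 389 RPKM and 98.5 to 777 RPKM. The surface genes Cd177 and Ly6g rose from 11.9 to 115 RPKM and from 1.54 to 6.17 RPKM. Mmp8, a neutrophil collagenase, was the 1 gene that fell, from 126 to 102 RPKM (log2 change -0.30 ± 0.06 SE, limma adjusted p = 0.0014). The primary granule genes rose by 5.10 to 5.45 for the 4 named above, and the secondary granule genes Camp and Ltf by 1.85 and 2.21. The difference between these stages was not tested. The macrophage identity sum moved the other way over the same libraries, and its part in these rises was not tested.

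Monocyte genes moved in both directions. Of 24 listed genes 23 were tested, 12 were higher and 10 lower (median log2 change 0.32), a share of higher calls close to the 50.8% of all genes. After median centring 10 were higher and 11 lower. Changes of at least 2-fold were called for 9 of the 23 upward and 6 downward, against 13.4% and 8.64% of all genes tested. The summed level of the list was 1997 to 2241 RPKM in gWT and 7373 to 7988 RPKM in gKO. Ly6c2, the antigen of classical monocytes, measured 101, 130.4 and 87.4 RPKM in gWT and 1065, 1252 and 1116 RPKM in gKO (log2 change 3.43 ± 0.14 SE, limma adjusted p = 6.99e-08). Plac8 and Spn (CD43) rose from 63.6 to 904 RPKM and from 10.7 to 69.1 RPKM. Among those that fell, Ms4a4c measured 63.1, 81.5 and 61.9 RPKM in gWT and 1.79, 1.8 and 1.83 RPKM in gKO (log2 change -4.63 ± 0.10 SE, limma adjusted p = 2.87e-09), and Ms4a4a and the lectin Clec4a1 fell from 272 to 15.3 RPKM and from 140.0 to 11.9 RPKM. The Ms4a4 and Ms4a6 genes are similar to each other, so the values of single members carry that uncertainty.

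Markers of other cells were low or moved in part. Of 22 mast cell, basophil and eosinophil genes 9 were tested, 5 higher and 4 lower. Among the 9, 5 reached 1 RPKM in one group only, 4 of them in gWT only, which fixed their direction. The tryptases Tpsb2 and Tpsab1 and the chymase Cma1 were listed at 0 in all 6 libraries, while Kit rose from 0.968 to 19.8 RPKM and the eosinophil gene Prg2 fell from 24.1 to 0.962 RPKM. The summed level of that list was 39.1 to 47.8 RPKM in gWT and 48.02 to 49.8 RPKM in gKO. Of 26 lymphocyte genes 6 were tested, 1 higher (Nkg7, 1.73 to 14.9 RPKM) and 1 lower (Cd4, 2.92 to 0.606 RPKM), with Pax5, Cd3e and Ms4a1 under 1 RPKM throughout and a sum of 17.7 to 24.5 RPKM in gWT and 27.3 to 33.9 RPKM in gKO. Globin genes Hbb-b1 and Hbb-bs, Car1 and Slc4a1 were listed at 0 in all 6 libraries. Of 7 tested genes of erythroid cells and megakaryocytes 5 were lower and 1 higher, and Pf4 made up most of the gWT part of the sum, which was 1156 to 1198 RPKM in gWT and 176 to 205 RPKM in gKO. Of 24 dendritic cell genes 15 were tested, 10 lower and 4 higher, and Xcr1 and Clec9a were under 1 RPKM throughout. Among the 15, 4 reached 1 RPKM in gWT only, which fixed their direction. The sum of the dendritic cell list was 526 to 649 RPKM in gWT and 176 to 196 RPKM in gKO. Of 25 stromal and endothelial genes 9 were tested, 8 higher and 1 lower. Among the 9, 3 reached 1 RPKM in gKO only, which fixed their direction. The lower call was that of Vcam1, an adhesion molecule that macrophages also express (log2 change -0.17 ± 0.07 SE, limma adjusted p = 0.047), and it was lost when gWT 1, gWT 2, gKO 1, gKO 2 or gKO 3 was left out. Col3a1, Pdgfra and Cdh5 were under 1 RPKM in all 6 libraries, and Col1a1 measured 0.369, 0.404 and 0.827 RPKM in gWT and 2.08, 4.45 and 2.28 RPKM in gKO. The stromal sum was 16.1 to 16.97 RPKM in gWT and 108 to 116 RPKM in gKO, most of it from Fn1 in gKO. Their part in the other results was not tested.

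**Figure D3:**
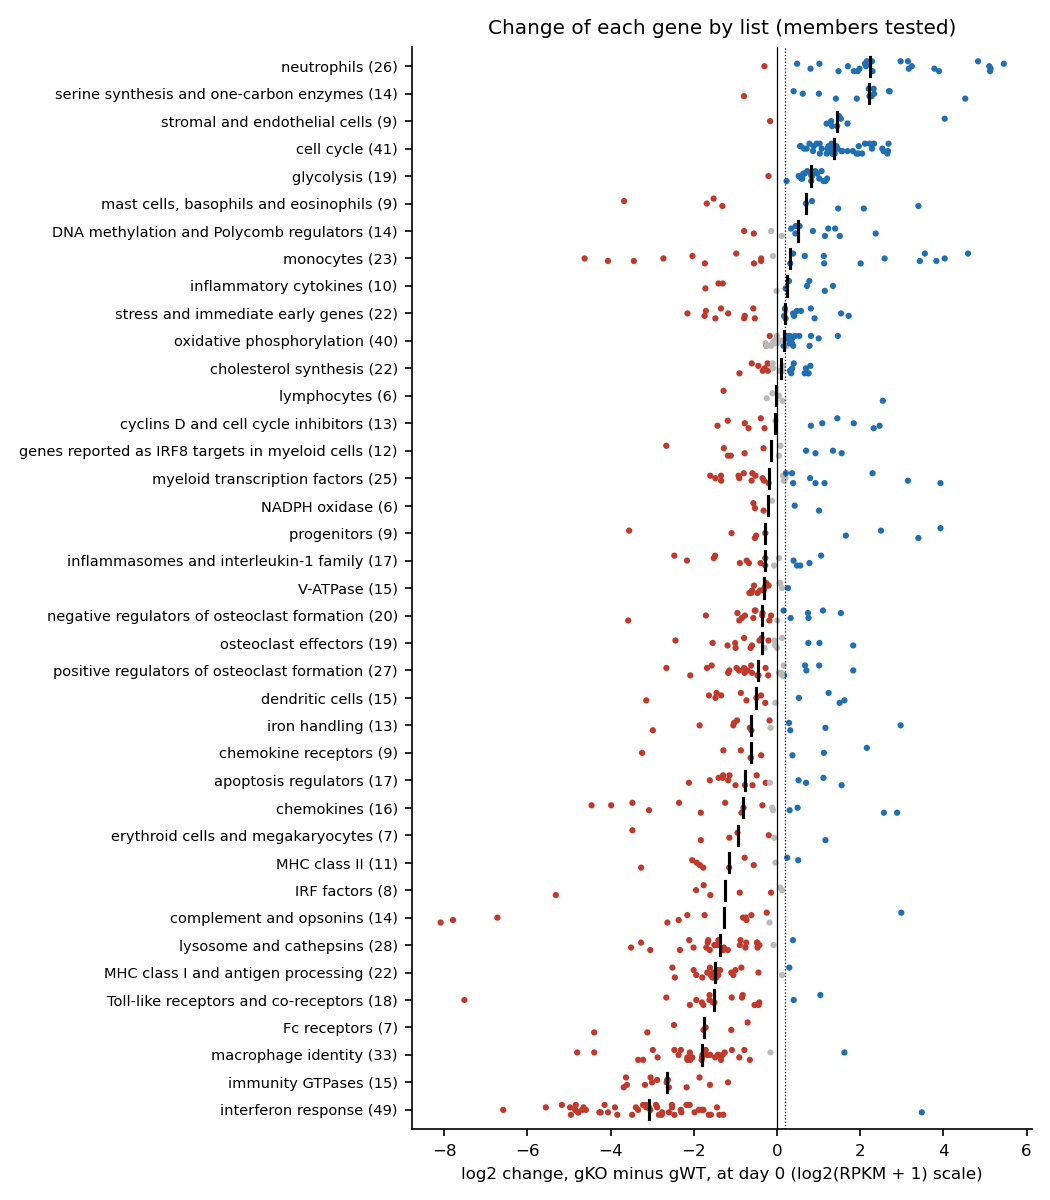
Change of each tested gene at day 0 (x axis, log2 change of gKO minus gWT on the log2(RPKM + 1) scale) for 39 gene lists ordered by their median. Blue points were called higher, red points called lower and grey points not called; the black bar is the list's median and the dotted line the median of all genes (0.19). The medians run from -3.08 for the interferon response to 2.25 for neutrophils.

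Transcription factors of the myeloid lineage moved in both directions. Of 27 listed genes 25 were tested, 13 were lower and 9 higher (30.1% and 50.8% of all genes tested). Myb, the factor of dividing progenitors, measured 2.73, 2.73 and 2.49 RPKM in gWT and 56.9, 53.7 and 53.3 RPKM in gKO (log2 change 3.93 ± 0.05 SE, limma adjusted p = 8.63e-10). The granulocyte factors Gfi1 and Cebpe rose from 1.07 to 17.3 RPKM (log2 change 3.15 ± 0.06 SE, limma adjusted p = 1.42e-09) and from 7.33 to 39.9 RPKM (log2 change 2.30 ± 0.08 SE, limma adjusted p = 2.99e-08). Batf3, a dendritic cell factor, fell from 2.52 to 0.246 RPKM. Spi1, which encodes the partner PU.1, was close to level at 222, 255 and 242 RPKM in gWT and 195, 220.5 and 208 RPKM in gKO (log2 change -0.20 ± 0.08 SE). Of 9 progenitor genes tested 4 were higher and 5 lower (50.8% and 30.1% of all genes tested). Kit, the stem cell factor receptor, measured 0.976, 1.01 and 0.921 RPKM in gWT and 20.1, 19.1 and 20.1 RPKM in gKO (log2 change 3.40 ± 0.05 SE, limma adjusted p = 1.09e-09), and Cdk6 rose from 3.93 to 26.98 RPKM. Ly6a (Sca-1), which interferon also induces, fell from 237 to 19.2 RPKM and Cd34 from 7.73 to 5.15 RPKM.

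Cell cycle genes rose without exception. All 41 listed genes were tested and all 41 were called higher, against 50.8% of all genes tested, with a median log2 change of 1.38. All 41 were also called higher under quantile scaling (median 1.30) and median centring (median 1.16). The summed level was 794 to 927 RPKM in gWT and 2231 to 2277 RPKM in gKO. Mcm5, a subunit of the replicative helicase, measured 16.6, 13.6 and 13.6 RPKM in gWT and 76.5, 78.6 and 76.3 RPKM in gKO (log2 change 2.33 ± 0.08 SE, limma adjusted p = 2.24e-08), and Rrm2, which makes deoxynucleotides, rose from 14.4 to 97.8 RPKM (log2 change 2.68 ± 0.07 SE, limma adjusted p = 6.33e-09). Of the mitotic genes, Ccnb1 (cyclin B1) measured 28.3, 21.2 and 24.2 RPKM in gWT and 64.6, 65.7 and 64.6 RPKM in gKO (log2 change 1.38 ± 0.09 SE, limma adjusted p = 1.4e-06), and the centromere gene Cenpa rose from 43.8 to 65.5 RPKM (0.57 ± 0.07 SE). All 3 D-type cyclins rose, Ccnd1 from 9.77 to 52.9 RPKM (log2 change 2.32 ± 0.06 SE, limma adjusted p = 7.72e-09), Ccnd2 from 1.15 to 10.9 RPKM and Ccnd3 from 32.7 to 120.0 RPKM. The inhibitor Cdkn1a (p21) fell from 134 to 58.5 RPKM (log2 change -1.18 ± 0.06 SE, limma adjusted p = 2.42e-07) while Cdkn2c and Cdkn2d rose by 0.81 and 1.09 on the log2 scale. Of the 13 D-type cyclins and inhibitors tested 6 were higher and 6 lower. Of 17 apoptosis genes tested 12 were lower and 4 higher: the killers Bbc3 (PUMA) and Bmf and the survival factor Mcl1 fell by 2.12, 1.62 and 1.31 on the log2 scale.

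Biosynthetic enzymes rose beside the cell cycle. Of 14 tested genes of serine synthesis, one-carbon metabolism and their regulators 13 were higher and 1 lower, with a median log2 change of 2.21. Phgdh measured 2.33, 3.08 and 1.97 RPKM in gWT and 76.2, 84.8 and 73.3 RPKM in gKO. Shmt2 and Mthfd2, which pass serine carbon to folate in mitochondria, rose from 9.29 to 50.5 RPKM (log2 change 2.32 ± 0.05 SE, limma adjusted p = 3.31e-09) and from 7.48 to 40.02 RPKM (log2 change 2.27 ± 0.06 SE, limma adjusted p = 6.51e-09). Asns (asparagine synthetase) rose from 2.27 to 20.1 RPKM and Atf4, the factor that induces these genes under amino acid stress, from 50.6 to 137 RPKM. Ddit3 (CHOP), another stress factor, was the 1 gene that fell, from 20.99 to 11.6 RPKM. Of 19 glycolysis genes tested 18 were higher and 1 lower (median 0.82), with Gpi1 and Eno1 rising from 169 to 391 RPKM and from 237 to 512 RPKM. Oxidative phosphorylation had no firm direction: 18 of 40 genes were higher and 2 lower as deposited, with 22 higher and 7 lower after quantile scaling, but 6 higher and 11 lower after median centring. Cycs, the electron carrier cytochrome c, rose from 16.4 to 46.99 RPKM (log2 change 1.46 ± 0.08 SE, limma adjusted p = 5.43e-07). Cholesterol synthesis (9 higher and 7 lower of 22, but 8 and 11 after quantile scaling and 6 and 11 after centring) and stress genes (11 higher and 10 lower of 22, but 8 and 10 after quantile scaling and 6 and 10 after centring) were likewise mixed. Of 14 DNA methylation and Polycomb genes tested 10 were higher and 2 lower (50.8% and 30.1% of all genes tested). They were led by Uhrf1 and Dnmt1, which copy methylation at replication, from 7.92 to 44.8 RPKM and from 21.9 to 63.8 RPKM.

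Most regulators and effectors of osteoclasts that passed the test at day 0 were lower. Over all genes tested, 30.1% were lower and 50.8% higher. Of 27 positive regulators tested 17 were lower and 5 higher (median log2 change -0.47). Tnfrsf11a, the receptor for RANKL, measured 16.8, 14.98 and 14.2 RPKM in gWT and 13.1, 12.3 and 13.8 RPKM in gKO (log2 change -0.21 ± 0.07 SE, limma adjusted p = 0.0213). Fos fell from 46.2 to 26.2 RPKM (log2 change -0.79 ± 0.05 SE, limma adjusted p = 8.23e-07), and Prdm1, a repressor of inhibitors of the process, fell from 7.74 to 0.383 RPKM (log2 change -2.66 ± 0.06 SE, limma adjusted p = 3.25e-09). Of 20 negative regulators tested 13 were lower and 6 higher, a count that includes Irf8. Id3 measured 161, 163 and 168 RPKM in gWT and 11.1, 15.01 and 12.6 RPKM in gKO (log2 change -3.58 ± 0.09 SE, limma adjusted p = 6.9e-09), and its relative Id1 rose from 11.1 to 34.2 RPKM (log2 change 1.53 ± 0.09 SE, limma adjusted p = 6.07e-07). Of 19 effectors tested 11 were lower, 3 higher and 5 not called (median -0.37). Ctsk, the collagenase of resorbing cells, measured 22.01, 50.96 and 25.9 RPKM in gWT and 27.7, 42.2 and 24.9 RPKM in gKO (log2 change 0.00 ± 0.30 SE, limma adjusted p = 0.999). Acp5, the tartrate-resistant phosphatase, was at 19.3, 36.1 and 21.7 RPKM in gWT and 22.1, 33.02 and 18.7 RPKM in gKO (log2 change -0.05 ± 0.25 SE, limma adjusted p = 0.865). The second library of each group was the highest for both genes. Mmp14, a membrane collagenase, fell from 15.1 to 1.97 RPKM (log2 change -2.44 ± 0.16 SE, limma adjusted p = 1.19e-06), and Mmp9, also a neutrophil gene, rose from 35.1 to 70.3 RPKM (log2 change 1.02 ± 0.18 SE, limma adjusted p = 0.000759).

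The day 0 differences were compared with those after RANKL by testing the difference of the changes (gKO minus gWT at the later day, minus the same at day 0) over the 18 g libraries. By limma, 9640 of 11462 genes were called at day 3 (84.1%) and 8454 at day 6 (73.8%). At day 3, 3825 of these (33.4% of genes tested) were higher and 5815 (50.7%) lower than at day 0, but 4968 and 4692 after quantile scaling. At day 6, 2955 were higher and 5499 lower, but 3928 and 4234 after quantile scaling. Within day 3, 33.7% of genes were higher in gKO and 48.0% lower, and within day 6 26.4% and 27.1%. Changes of at least 2-fold were called for 1456 genes up and 936 down at day 0, 804 up and 1305 down at day 3, and 81 up and 201 down at day 6. The median of all differences was -0.24 at day 3 and -0.19 at day 6, and 0.04 and -0.02 after quantile scaling.

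Cell cycle genes changed sign between day 0 and day 3. All 41 were higher in gKO at day 0, all 41 were lower at day 3, against 48.0% of all genes (median log2 change -1.84), and all 41 differences were called. Ccnd1 had the largest difference downward. It went from 9.77 to 52.9 RPKM at day 0 to the reverse order at day 3, with 121, 115 and 112 RPKM in gWT and 2.8, 3.13 and 2.62 RPKM in gKO (difference of log2 changes -7.25 ± 0.11 SE, limma adjusted p = 5.32e-18). Myc, which drives growth, went from a log2 change of 3.37 at day 0 to -2.60 at day 3, and the amino acid transporter Slc7a5 from 3.28 to -3.08. At day 6 the cell cycle list had 23 genes higher and 1 lower (median 0.24).

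Osteoclast effectors, most of whose calls at day 0 were lower, were higher in gKO at day 3 for 24 of 24 genes tested, against 33.7% of all genes (median log2 change 1.68), and 23 differences were called upward. Ctsk reached 1318, 1467 and 2108 RPKM in gWT and 8106, 7860.0 and 8225 RPKM in gKO at day 3 (difference of log2 changes 2.33 ± 0.35 SE, limma adjusted p = 1.2e-05). At day 6 its log2 change was 0.44. Csf1r was lower in gKO at day 0 and higher at day 3, at a log2 change of 1.10 (difference 3.19 ± 0.07 SE, limma adjusted p = 2.39e-16). The macrophage identity list went from a median of -1.81 at day 0 to -0.13 at day 3 and -0.32 at day 6.

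Other losses persisted with smaller size. C1qa was still lower in gKO at day 3, with 114, 115 and 113 RPKM in gWT and 1.69, 1.65 and 2.31 RPKM in gKO, and at day 6 (log2 changes -5.33 and -5.55, difference from day 0 at day 3 2.76 ± 0.15 SE, limma adjusted p = 1.15e-11). The mean gWT level of C1qa was 758, 114 and 109.7 RPKM on days 0, 3 and 6, and the mean gKO level 1.8, 1.88 and 1.37 RPKM. Interferon response genes were lower for 45 of 49 at day 3 and 46 at day 6 (48.0% and 27.1% of all genes), with medians of -1.07 and -1.51, and 47 of them had a difference called higher at day 3. Samd9l kept its rise, at log2 changes of 3.06 and 2.78. Of the neutrophil genes, the primary granule genes lost most of their rise by day 6: Mpo went from 5.13 at day 0 to 2.27 and 0.30. The calgranulin S100a8 stayed high in gKO, at 4.05 and 3.13.

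**Figure D4:**
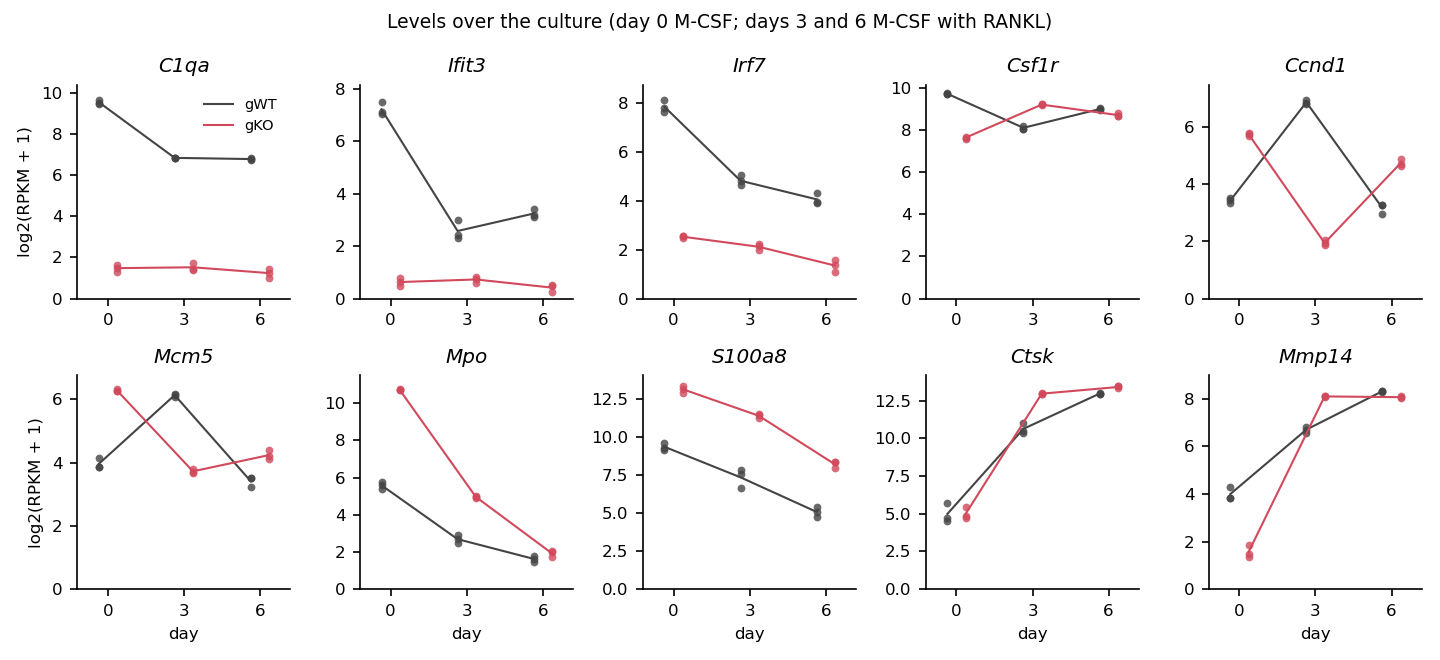
Level of 10 genes in gWT (grey) and gKO (red) on days 0, 3 and 6, as log2(RPKM + 1); points are single libraries, 3 per group and day, and lines join their means. Ccnd1 and Mcm5 change order between day 0 and day 3, C1qa, Ifit3 and Irf7 stay lower in gKO on all 3 days, and Ctsk is level at day 0 (log2 change 0.00) and higher in gKO at day 3 (2.33).

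The cKO mice offered the most similar comparison, also at day 0. There the cWT libraries came from one data set and the cKO libraries from another, per the sample sheet, so genotype and data set cannot be told apart in the c values. Irf8 was higher in cKO, from 59 to 210.0 RPKM (log2 change 1.81 ± 0.04 SE). The difference of the changes (c minus g) was called for 6961 of 11119 genes (62.6%), 2062 higher (18.5%) and 4899 lower (44.1%), but 2775 and 3584 after quantile scaling. Within the c mice 38.4% of genes were called higher in cKO and 34.4% lower. Changes of at least 2-fold were called for 501 genes upward and 371 downward in cKO.

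The complement and interferon losses were also seen in cKO, and both were smaller there. Of 14 complement and opsonin genes 9 were lower and 2 higher in cKO, against 34.4% and 38.4% of all genes. Their median log2 change was -0.58 against -1.28 in gKO, with 10 differences called higher and 0 lower. C1qa measured 193, 202 and 154 RPKM in cWT and 2.43, 2.56 and 2.04 RPKM in cKO (log2 change -5.78, difference from g 2.31 ± 0.15 SE, limma adjusted p = 8.06e-08). Ly86 changed by -5.83. Of 49 interferon response genes 43 were lower in cKO, against 34.4% of all genes (median log2 change -0.95 against -3.08 in gKO), and 48 differences were called in that sense. Ifit3 measured 5.72, 5.22 and 3.26 RPKM in cWT and 0.255, 0.609 and 0.305 RPKM in cKO (difference 4.56 ± 0.24 SE, limma adjusted p = 1.64e-08). Both C1qa and Ifit3 stood lower in cWT than in gWT. A low wild-type level leaves less room for a fall on the log2(RPKM + 1) scale. How far the lower cWT levels account for the smaller c changes was not tested. Samd9l, which rose in gKO, was at 11.9, 12.2 and 12.2 RPKM in cWT and 14.9, 15.7 and 15.8 RPKM in cKO (difference -3.15 ± 0.09 SE, limma adjusted p = 1.15e-10). Of the 12 libraries at day 0, the 3 gWT libraries alone were under 1 RPKM for this gene. The neutrophil list had 25 genes higher and 1 lower in cKO as well, against 38.4% of all genes called higher, with a median of 2.34. Cell cycle genes were higher for 29 and lower for 2 of 41 in cKO, with a median of 0.28 against 1.38 in gKO, and 41 differences were called.

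**Figure D5:**
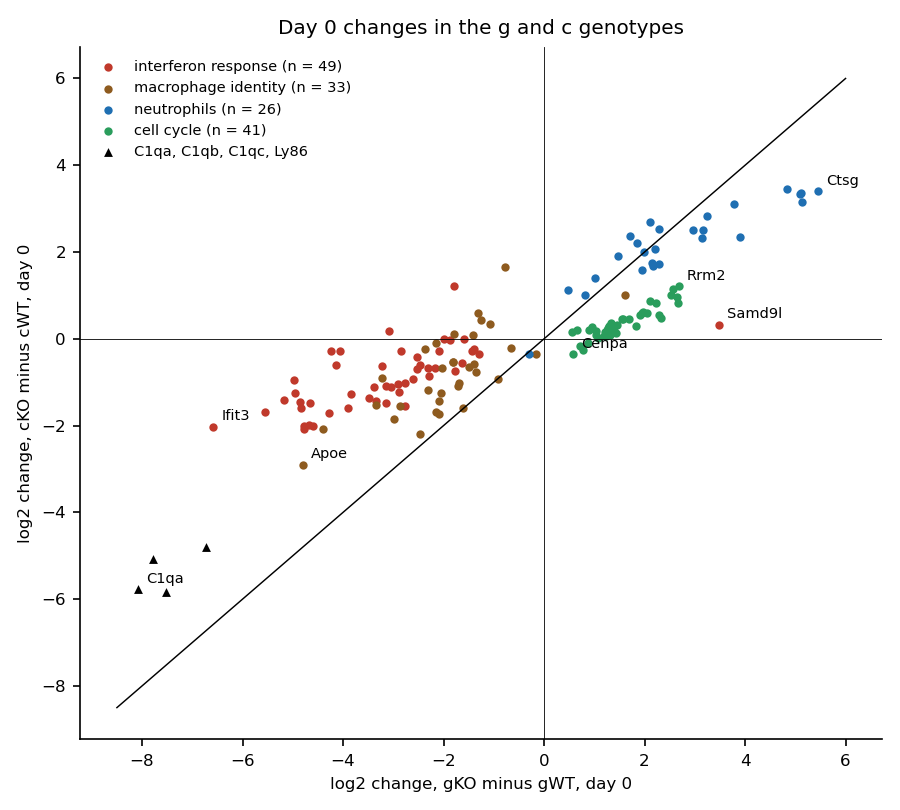
Change of single genes at day 0 in cKO against cWT (y axis) and in gKO against gWT (x axis), both as log2 change on the log2(RPKM + 1) scale, for 4 lists and for C1qa, C1qb, C1qc and Ly86 (triangles), with the line of equal change. Interferon and cell cycle genes lie nearer to 0 on the y axis than on the x axis, with Ifit3 at -6.58 and -2.03 and Samd9l at 3.48 and 0.33.

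The authors' deposited table for day 0 gives a ratio and a q-value per gene from their own model. In the authors' deposited table, 11802 genes had a q-value under 0.05, 7196 with a ratio above 1 and 4606 below. Of the genes tested here 9195 had such a q-value, and 8723 passed both that threshold and limma's. For Irf8 the authors' deposited table lists a ratio of 0.903 with a q-value of 0.00233, and for C1qa a ratio of 0.00248.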

How the data were processed

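Total RNA was sequenced on the Illumina platform. CASAVA 1.8.4, bcl2fastq 2.17.1, TopHat2 2.1.0 and Partek with genome build mm9 are named in the submitters' processing notes, and how reads shared by several genes were counted is not given in the sources used here. Values per library are RPKM as deposited. For 4298 genes at 0 in 10 to 31 libraries, RPKM was multiplied by the alignments of each library. The low values so obtained were whole multiples of the gene's smallest for 96.1% of 39836 ratios (tolerance 0.1), so the authors counted whole reads. The authors' deposited day 0 table holds group means as log2(RPKM + 0.1), ratios and q-values, which were only copied, and the authors' sheet lists alignment counts per library. What terms their model had is not given in the sources used here.

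RPKM plus a pseudocount of 1 was log2-transformed and tested with limma 3.58.1 (trend and robust moderation, R 4.3.3), with Benjamini-Hochberg adjustment over all genes tested, and the code was tested on simulated data. All log2 changes are on the log2(RPKM + 1) scale, which understates changes of low genes. Differences of changes were fitted on the 18 g libraries or the 12 day 0 libraries. RefSeq promoters were matched by symbol. Tables were handled in Python 3.11.15 (numpy 2.4.6, pandas 2.3.3) and plots drawn with matplotlib 3.10.9. The compared libraries and the 40 gene lists were chosen with earlier results of these data known. Named genes are the 12 largest called rises and falls without overlap of the groups and with a mean of 5 RPKM or more in the higher group, up to 6 members per list by size of change, members described by role, and the 6 highest and lowest of each difference of changes. Some genes are not reported here. Predicted gene models, small RNAs, mitochondrial and sex-linked genes and Irf8 were left out of the largest changes.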

Additional observations from a re-analysis of the deposited data

Results flagged for a closer look

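These results were singled out because the gKO change at day 0 differed from the change in another setting by a test of the difference itself (limma, adjusted p under 0.05). Values are differences of log2 changes. At day 3, 9640 genes differed from day 0. The lowest were Ccnd1 (-7.25), Slc7a5 (-6.36), Myc (-5.97), Srm (-5.95), Mybl2 (-5.52) and Cdca7 (-5.46). The highest were Ms4a4a (6.97), Adgre4 (6.35), Dbp (5.28), Selenop (5.27), Ms4a4c (5.1) and Ifit3 (4.74).

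At day 6, 8454 genes differed from day 0. The lowest were Ctsg (-4.96), Mpo (-4.83), Cst7 (-4.71), Elane (-4.51), Prtn3 (-4.39) and Ms4a3 (-4.38). The highest were Ly86 (4.5), Ifit3b (3.83), Aif1 (3.81), Ifit3 (3.76), Ms4a4c (3.73) and Apoe (3.67), all of which had fallen at day 0.

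In the c mice at day 0, the change differed from that in gKO for 6961 genes. The lowest were Ifi202b (-4.37), Hist1h2ak (-3.76), Hist1h2ap (-3.2), Samd9l (-3.15), Mid1 (-2.95) and Phgdh (-2.59). The highest were Ifit3 (4.56), Ifit3b (4.03), Ifit2 (3.95), Mmp12 (3.88), Oasl2 (3.87) and Ifi44 (3.78). Ifi202b and Hist1h2ak did not reach the level needed for testing in the g libraries at day 0, and genotype and data set cannot be told apart in the c values. No group had more than 3 libraries, too few to test for single outlying values.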

How the results depend on the processing

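The counts of genes called at day 0 and of differences of changes kept within 1.5 times their main value under all pseudocounts, filters, scalings and fits tried, and when single libraries were left out. Without 1 library, 8197 to 8741 genes were called at day 0, and the differences numbered 9491 to 9649 at day 3, 8209 to 8467 at day 6 and 6566 to 7170 against the c mice. With a pseudocount of 0.1 RPKM, 1848 genes were at least 2-fold higher and 1157 lower.

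Some genes that were not called in the main fit changed sign, and the cause was not tested. Under median centring and quantile scaling the log2 changes were -0.17 and -0.18 for Cd79b, -0.092 and -0.047 for Irf3, -0.14 and -0.12 for Irf4, -0.13 and -0.13 for Nf1, and -0.17 and -0.17 for Nfatc1. Nfatc1 was called lower under both. Quantile scaling gave 0.125 for Tgfb1, which was then called higher (limma adjusted p = 0.0403). Without 1 library, Cd79b ranged from -0.036 to 0.141, Nfatc1 from -0.018 to 0.102 and Tgfb1 from -0.032 to 0.01. Calls were gained or lost in 18 further cases, among Irf8, Ftl1, Irf3, Ncf4 and Tgfb1. Of the list counts, lower oxidative phosphorylation genes numbered 1 to 7 without 1 library (7 without gKO 2). The lower glycolysis call was lost without gKO 2 or gKO 3. Higher calls became 1 for IRF factors without gWT 2 and 2 for MHC class I without gWT 1, and lower lymphocyte calls became 2 without gWT 1 or gKO 3.

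Whether libraries of the same replicate number were paired could not be settled, and the main fit treated them as unpaired. Deviations from the group means correlated at 0.474, 0.525 and -0.193 for the 3 numbers, and 4 of 6 libraries were closest to their own number. With the replicate number as a block, 9213 genes were called at day 0 (5760 higher and 3453 lower), 9727 differed at day 3, 8589 at day 6 and 7060 against the c mice.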
